A study of Homo sapiens with 2 samples.

Results

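Carcinoembryonic antigen-related cell adhesion molecules (CEACAMs) and mucins are glycoproteins of the epithelial surface. The 7 genes examined were CEACAM1, CEACAM5, CEACAM6, MUC1, MUC13, MUC5AC and MUC5B. They were chosen on the tag counts of this same pair of libraries, with earlier results of these data known. Their differences are therefore given as a description, without a test. CEACAM1, CEACAM6, MUC1, MUC13 and MUC5B had values. No values of CEACAM5 and MUC5AC were analysed here, so nothing is said of their levels. All 5 had at least 20 tags in both libraries together, the minimum used below, as did 10045 genes in all.

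The cells were A549, a human lung adenocarcinoma line, which carried a hairpin RNA in a lentiviral vector under the doxycycline-inducible H1TetO promoter. One line, A549-H1tetO-shRNA-SOX2, expressed a single designed hairpin against SOX2, and the control line A549-H1tetO-shRNA-Con expressed a scrambled hairpin. Both were puromycin-selected polyclonal lines, and both received doxycycline for 4 days, so the comparison holds no cells without the drug or without a hairpin. Expression was measured by digital gene expression, in which mRNAs are cut to short tags that are sequenced and counted per gene, with 1 library per line (n = 1 each). There is no spread between replicates. Intervals in parentheses are exact at 95% (Clopper-Pearson) and reflect the error of counting alone.

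CEACAM proteins are members of the immunoglobulin superfamily that bind one another and related molecules between neighbouring cells. CEACAM1 spans the membrane and carries inhibitory signalling motifs in its cytoplasmic tail, whereas CEACAM5 and CEACAM6 are held by a glycosylphosphatidylinositol (GPI) anchor. Mucins carry dense O-linked sugars on serine and threonine. MUC1 and MUC13 are transmembrane mucins of the apical surface, and MUC5AC and MUC5B are the secreted gel-forming mucins of airway mucus.

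Within these genes the differences ran in both directions. CEACAM1 and MUC13 had far more tags in the library labelled shRNA-SOX2, MUC5B had fewer, and MUC1 and CEACAM6 had nearly the same number in each library. Of the 5 genes, 2 were higher by 2-fold or more (against 10.4% of the 10045 genes with at least 20 tags) and 1 was lower by 2-fold or more (against 13% of those genes). These shares are printed for scale, since the genes were picked from this contrast. With the libraries scaled by clean tags the shares over the table were 8.60% higher and 15.9% lower, and with edgeR's TMM factors 11.7% and 11.5%.

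Tags on genes numbered 2304184 for shRNA-Con against 2093816 for the library labelled shRNA-SOX2. The targeted gene SOX2 had 16 tags in shRNA-Con against 23 in the one labelled shRNA-SOX2, a ratio of 1.58 (0.80 to 3.20). Its tags were not fewer there, but the interval holds 1, so no direction can be given. The label could not be checked by SOX2. The columns of the table carry the abbreviations SC and S1, of which SC was read as the control, and every direction rests on that reading. Epithelial markers were abundant in both libraries, with 22012 and 22403 tags on 6 genes. EPCAM had only 8 and 4 of them, and most lay on KRT8 (7702 and 12729) and KRT18 (10318 and 7887). The alveolar type II list was represented by ABCA3, with 56 and 45 tags, while LAMP3 had 3 and 0, SFTPD had 0 and 3, and SFTPA1, SFTPA2, SFTPB and SFTPC had no tags listed. The 6 leukocyte markers together had 16 and 15 tags, and PTPRC had 2 in each. As in any bulk sample, fewer cells that express a gene and less RNA per cell cannot be told apart.

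CEACAM1 (Entrez Gene ID 634, minus strand of chromosome 19, 42507304 to 42561234 in the GENCODE 29 annotation of GRCh38) had 6 tags in shRNA-Con against 80 in the one labelled shRNA-SOX2. Levels are given in CPM, the tags of a gene per 1000000 tags on genes, and for CEACAM1 they were 2.60 (0.956 to 5.67) and 38.2 (30.3 to 47.6). The ratio was 14.7 (6.45 to 41.2), a log2 difference of 3.88, the 11th highest of the 10045 genes. With only 6 control tags the size of the ratio is known loosely, as the width of its interval shows. CEACAM1 lies inside LIPE-AS1, a noncoding gene on the opposite strand, and whether the counting used strand is not given in the sources used here. The pseudogene CEACAMP2, on the same strand, also overlaps CEACAM1. The genes nearest to CEACAM1 in log2 difference over these 2 libraries were SNAR-E (42 and 554 tags, 3.86), CYP4F12 (10 and 136 tags, 3.90) and SERPINA6 (2 and 42 tags, taken as 3 and 42, 3.95).

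CEACAM6 (Entrez Gene ID 4680, plus strand of chromosome 19, 41750977 to 41772208) had 20 tags in shRNA-Con against 16 in the one labelled shRNA-SOX2. Its levels of 8.68 (5.30 to 13.4) and 7.64 (4.37 to 12.4) CPM overlapped almost entirely. The ratio was 0.880 (0.427 to 1.79), a log2 difference of -0.18, and a difference within that interval was not detectable at this depth. The interval of CEACAM6 ended below that of CEACAM1, although the genes belong to the same cluster on chromosome 19. Genes of this family are similar in sequence, and how tags shared among them were counted is not given in the sources used here. CEACAM5 (plus strand of chromosome 19, 41708585 to 41729798) lies beside CEACAM6. AC243967.1, annotated as protein-coding on the same strand, overlaps both.

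**Figure D1:**
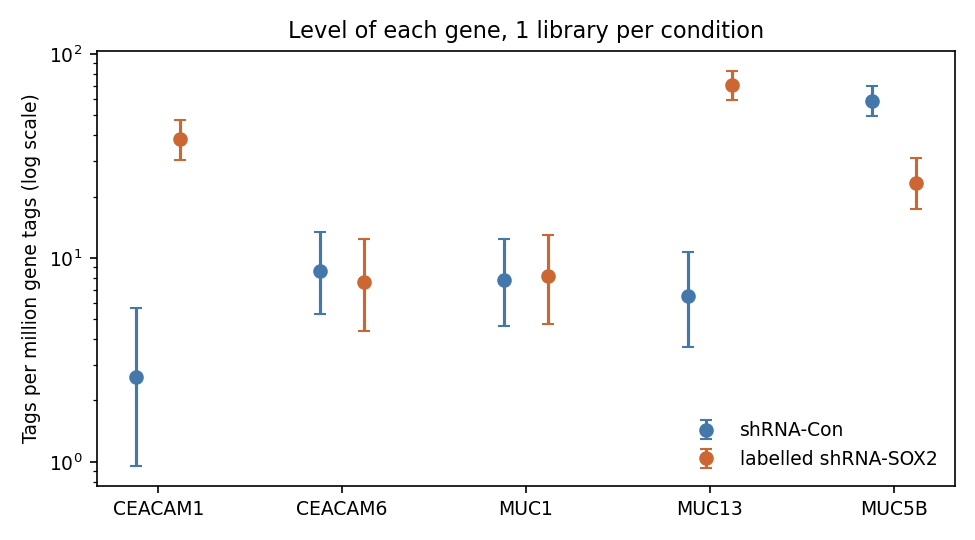
Level of CEACAM1, CEACAM6, MUC1, MUC13 and MUC5B in shRNA-Con (blue) and the library labelled shRNA-SOX2 (orange), in CPM on a log scale. Points are single libraries and bars are exact 95% counting intervals. The genes were picked from this contrast, so the distance between the bars of a gene is a description and not a test.

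The promoters of the genes show how CEACAM1 and CEACAM6 resemble each other and differ from MUC13. Sequences upstream of the RefSeq gene start in GRCh38.p14 follow, 5′ to 3′ in the direction of the gene. They are given for the pair with the highest ratios and for the CEACAM gene whose tags were nearly level. The stretches are chr19:42528510-42528731 on the minus strand for CEACAM1, chr19:41755280-41755420 on the plus strand for CEACAM6 and chr3:124934752-124935001 on the minus strand for MUC13. Capitals mark the motif matches described after them, and bases that fall in an annotated exon were left off the end.
CEACAM1: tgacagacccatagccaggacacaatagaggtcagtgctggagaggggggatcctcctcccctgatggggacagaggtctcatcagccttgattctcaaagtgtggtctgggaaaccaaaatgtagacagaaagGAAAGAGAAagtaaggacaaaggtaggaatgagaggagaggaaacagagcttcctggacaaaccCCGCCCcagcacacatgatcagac
CEACAM6: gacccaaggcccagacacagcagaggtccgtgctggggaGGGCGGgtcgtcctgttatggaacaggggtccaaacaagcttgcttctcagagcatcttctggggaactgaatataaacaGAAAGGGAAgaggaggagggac
MUC13: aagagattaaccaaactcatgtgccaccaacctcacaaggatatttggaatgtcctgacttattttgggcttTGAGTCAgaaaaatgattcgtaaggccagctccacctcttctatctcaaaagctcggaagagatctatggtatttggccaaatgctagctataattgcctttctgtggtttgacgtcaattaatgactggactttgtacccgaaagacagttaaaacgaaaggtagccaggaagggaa

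Over the whole 250 bases before the start, the CEACAM1 and CEACAM6 promoters were identical at 67.6% of aligned positions, and those of CEACAM5 and CEACAM6 at 73.6%. CEACAM1 and MUC13 shared 45.2%, and all pairs of a CEACAM gene or MUC13 with MUC1 shared between 40.6% and 48.9%. Letters for 6 factors were searched on both strands in the 5 promoters at hand, those of CEACAM1, CEACAM5, CEACAM6, MUC1 and MUC13. The SOX letters CNTTGTT were in 0 of the 5, and in 10.4% of all 35116 promoters of this length. The interferon response letters GAAANNGAA were in CEACAM1 and CEACAM6, as GAAAGAGAA and GAAAGGGAA, and in 6.88% of all promoters. The AP-1 letters TGANTCA were in MUC13 and in 6.57% of all. The E-box letters CACGTG were in CEACAM5 and CEACAM6 and in 6.34% of all, and the CEACAM6 match lies in the part left off above. The SP1 letters GGGCGG were in CEACAM1, CEACAM6 and MUC1 and in 42.6% of all. The STAT letters TTCNNNGAA were in 0 of the 5 and in 6.57% of all. The interferon response letters were present both in the CEACAM gene with the highest ratio and in the one whose tags were nearly level. Whether they bear on either level was not tested. The MUC13 promoter held 41.6% G and C, against a median of 58.0% over all promoters and 53.2% in CEACAM1. Only letters in this window were searched, and a match is not a bound site.

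MUC13 (Entrez Gene ID 56667, minus strand of chromosome 3, 124905442 to 124953819) had 15 tags in shRNA-Con against 148 in the one labelled shRNA-SOX2. MUC13 is a transmembrane mucin with epidermal growth factor-like domains, best known from the gut surface. Its level was 6.51 (3.64 to 10.7) CPM in shRNA-Con and 70.7 (59.8 to 83.0) in the other library. The ratio was 10.9 (6.37 to 19.9), a log2 difference of 3.44, the 24th highest of the 10045 genes. Among the 5 genes it had the most tags in the library labelled shRNA-SOX2.

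MUC1 (Entrez Gene ID 4582, minus strand of chromosome 1, 155185824 to 155192916), the widely expressed epithelial transmembrane mucin, had 18 tags in shRNA-Con against 17 in the one labelled shRNA-SOX2. AL713999.1, annotated as protein-coding on the same strand, overlaps MUC1. The levels of MUC1 were 7.81 (4.63 to 12.3) and 8.12 (4.73 to 13.0) CPM. The ratio was 1.04 (0.503 to 2.14), a log2 difference of 0.06, which becomes -0.06 with clean tags, so no direction can be given. MUC1 and MUC13, both transmembrane mucins, had similar tags in shRNA-Con and stood far apart in the other library.

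MUC5B (Entrez Gene ID 727897, plus strand of chromosome 11, 1223066 to 1262172) had 136 tags in shRNA-Con against 49 in the one labelled shRNA-SOX2. This gel-forming mucin was the member with the most tags in shRNA-Con. Its level was 59.0 (49.5 to 69.8) CPM in shRNA-Con and 23.4 (17.3 to 30.9) in the other library. It was 2.52-fold lower (ratio 0.396, 0.280 to 0.553), a log2 difference of -1.33, the 706th lowest of the 10045 genes. MUC5B-AS1, a noncoding gene on the opposite strand, overlaps it. MUC5AC (plus strand of chromosome 11, 1157953 to 1201138) is the adjacent gel-forming mucin.

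**Figure D2:**
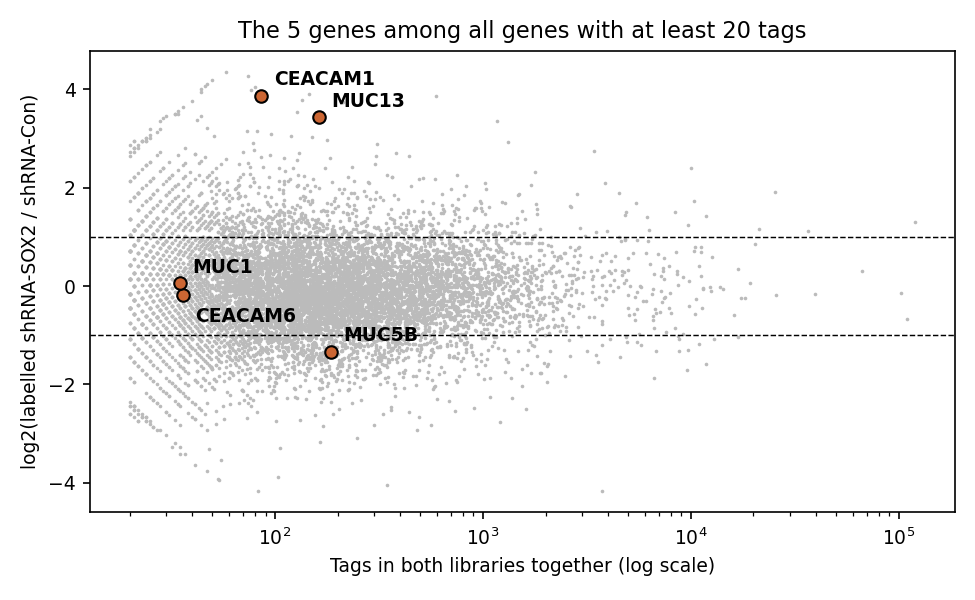
Log2 difference of each of the 10045 genes with at least 20 tags (grey) against its tags in both libraries together, with CEACAM1, CEACAM6, MUC1, MUC13 and MUC5B in orange. Dashed lines mark 2-fold. CEACAM1 (3.88) and MUC13 (3.44) lie near the upper edge, MUC1 and CEACAM6 near 0 and MUC5B (-1.33) below the lower line.

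How often a 2-fold difference occurs in this pair of libraries depends on the number of tags. Of the 1870 genes with at least 20 and under 50 tags, the range of MUC1 and CEACAM6, 19.0% were higher and 16.8% lower by 2-fold or more. Of the 1938 genes with at least 50 and under 100 tags, the range of CEACAM1, 11.0% were higher and 14.3% lower. Of the 2311 genes with at least 100 and under 200 tags, the range of MUC13 and MUC5B, 8.35% were higher and 13.1% lower.

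Few other members of both families had tags. Of 19 further CEACAM and pregnancy-specific glycoprotein (PSG) genes, 4 had tags and only CEACAM19 had at least 20. CEACAM19 had 33 tags in shRNA-Con against 13 in the one labelled shRNA-SOX2, a log2 difference of -1.21 (ratio 0.434, 0.209 to 0.846), opposite in direction to CEACAM1. CEACAM7 had 0 and 6 tags, at least 2.20-fold higher when the 0 is taken as 3 tags and the 6 as exact. The exact interval, which takes the 0 as a true 0 and covers counting error in the 6, begins at a ratio of 1.30. PSG8 had 0 and 4 tags and PSG1 had 0 and 2. Of 17 further mucin genes, 4 had tags. MUC20, a transmembrane mucin, had 0 and 10 tags, at least 3.67-fold higher on the same terms, with an exact interval that begins at 2.47. The sialomucins CD164, with 220 and 212 tags (log2 difference 0.08), and PODXL, with 90 and 65 (-0.33), had ratios whose intervals held 1. OVGP1 had 2 and 4 tags, a ratio of 1.47 (0.315 to 24.3) with the 2 taken as 3. Among CEACAM7 and MUC20 the tags lay in the library labelled shRNA-SOX2 alone, on counts too small to give more than a lower limit.

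Mucin-type O-glycosylation begins when a GALNT enzyme attaches N-acetylgalactosamine to serine or threonine, after which core enzymes extend it and sialyltransferases cap it. Of 36 such genes, 26 had tags and 20 had at least 20. Of the 20, 5 were higher by 2-fold or more (all genes 10.4%) and 1 was lower (all genes 13%), with a median log2 difference of 0.26 against -0.10 for all genes. The initiating enzyme GALNT4 had 10 tags in shRNA-Con against 68 in the one labelled shRNA-SOX2 (log2 difference 2.90, ratio 7.48, 3.83 to 16.3). GALNTL4, now named GALNT18, had 25 and 60 tags (1.40), GALNT12 had 5 and 18 (1.99), and GALNT9 had 7 and 13 (1.03, with a ratio interval of 0.758 to 6.05, and under 2-fold with clean tags). B3GNT3, which extends the core sugar, had 5 and 21 tags (2.21). Of the 6 enzymes below 0, the sialyltransferase ST6GALNAC4 was the one past 2-fold, with 57 tags in shRNA-Con against 10 in the one labelled shRNA-SOX2 (-2.37, ratio 0.193, 0.0879 to 0.381).

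The enzymes with the most tags differed less. GALNT1 had 382 and 478 tags (log2 difference 0.46), GALNT7 had 335 and 359 (0.24), GCNT3, the core branching enzyme of mucin-secreting epithelium, had 252 and 330 (0.53), and GALNT2 had 138 and 155 (0.31). Named after their values were seen, the other enzymes with at least 100 tags were GALNT10 with 103 and 51 (-0.88, ratio 0.545, 0.382 to 0.769), C1GALT1 with 97 and 74 (-0.25), GALNT14 with 64 and 51 (-0.19) and C1GALT1C1 with 42 and 69 (0.85). Of these 8 enzymes, 0 were past 2-fold. Of all 6237 genes with at least 100 tags, 7.55% were higher and 11.4% lower, so few would be looked for among 8. The enzymes past 2-fold all had under 100 tags. Of all genes with at least 20 and under 50 tags, 19.0% were higher and 16.8% lower. With at least 50 and under 100 tags, 11.0% were higher and 14.3% lower. Whether depth bears on the differences of these enzymes was not tested.

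**Figure D3:**
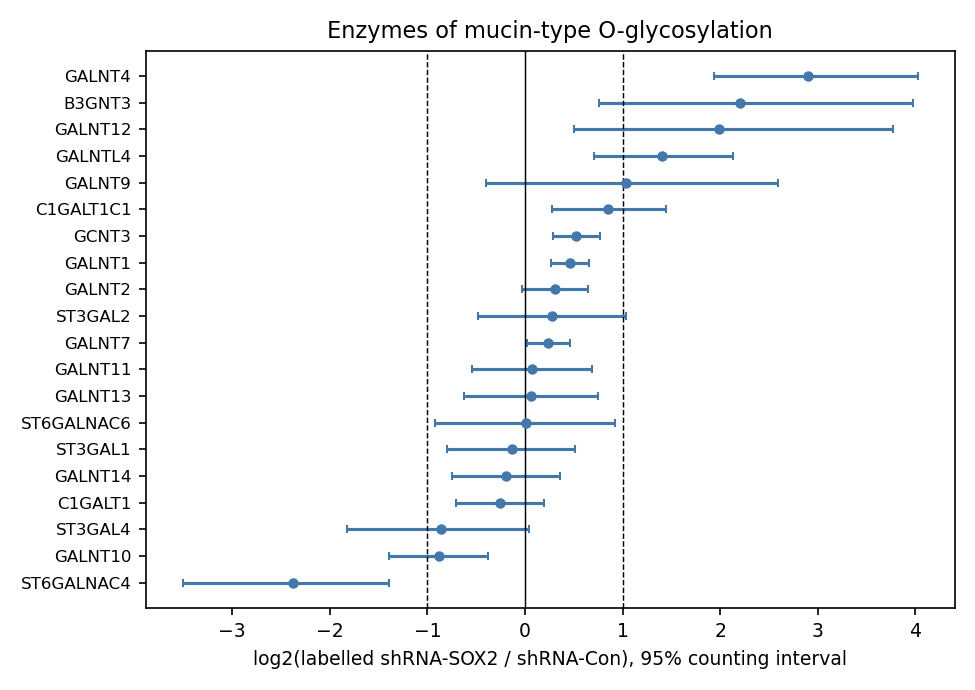
Log2 difference of the 20 mucin-type O-glycosylation genes with at least 20 tags, with exact 95% counting intervals. Dashed lines mark 2-fold. GALNT4 (2.90) lies furthest to the right and ST6GALNAC4 (-2.37) furthest to the left, and the intervals of most others are within or across the 2-fold lines.

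Genes of goblet and other secretory airway cells, whose transcription factors SPDEF and FOXA3 promote mucous differentiation, were represented thinly. Of 29 genes, 12 had tags and 6 had at least 20, of which 2 were higher by 2-fold or more (all genes 10.4%) and 0 lower (all genes 13%), with a median log2 difference of 0.66. FOXA1, a forkhead factor of airway and endoderm epithelium, had 14 tags in shRNA-Con against 53 in the one labelled shRNA-SOX2 (2.06, ratio 4.17, 2.28 to 8.13). FCGBP, a mucus-associated secreted protein, had 30 and 75 tags (1.46). AGR2, an endoplasmic reticulum protein needed for mucin folding, had 511 and 644 tags (0.47), FOXA2 had 118 and 92 (-0.22), SLPI had 23 and 14 (-0.58) and CREB3L1 had 8 and 13 (0.84). SPDEF had 12 and 3 tags and FOXA3 had 15 and 0, both below the minimum of 20 and named after their values were seen. FOXA3 was thus at least 4.54-fold lower with the 0 taken as 3 tags and the 15 as exact, and its exact interval reaches up to a ratio of 0.307. The ratio of SPDEF was 0.275 (0.050 to 1.02).

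GPI anchoring attaches CEACAM5 and CEACAM6 to the membrane. All 29 listed genes of anchor synthesis and attachment had at least 20 tags, and 2 of them were higher by 2-fold or more (all genes 10.4%) and 4 lower (all genes 13%), with a median log2 difference of -0.08 against -0.10 for all genes. PIGY, whose transcript also encodes PYURF, had 322 tags in shRNA-Con against 950 in the one labelled shRNA-SOX2 (1.70), and PIGM had 41 and 80 (1.10). The transamidase subunit PIGS, which helps join the anchor to the protein, had 32 and 3 tags (-3.28, ratio 0.103, 0.020 to 0.330). PIGO had 221 and 86 tags (-1.22), PIGX had 110 and 40 (-1.32), and PGAP2 had 82 and 21 (-1.83). Of those not past 2-fold, PIGT had 684 and 319 tags (-0.96), GPAA1 had 234 and 142 (-0.58), DPM1 had 335 and 337 (0.15) and PIGK had 135 and 154 (0.33). With clean tags 1 gene was higher and 5 lower, and with TMM factors or the median ratio 3 were higher and 4 lower. The transamidase subunits PIGS, PIGT and GPAA1 thus had lower values, and PIGU (77 and 86 tags, 0.30) and PIGK did not.

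Partners of the cytoplasmic tails of CEACAM1 and MUC1, and proteases that shed surface proteins, were examined as 1 list. Of 21 genes, 18 had at least 20 tags, 1 was higher by 2-fold or more (all genes 10.4%) and 3 were lower (all genes 13%), and the median log2 difference was -0.17. The receptor EGFR had 108 tags in shRNA-Con against 24 in the one labelled shRNA-SOX2 (-2.03), and FLNA, an actin crosslinker, had 2332 and 847 (-1.32). The calmodulin genes CALM2, with 1253 and 373 tags (-1.61), and CALM3, with 293 and 598 (1.17), lay on opposite sides of 0. S100A10 had 1598 and 2055 tags (0.50) and LGALS3, the galectin that binds MUC1, had 507 and 745 (0.69). The sheddase ADAM9 had 898 and 929 tags (0.19). Of the phosphatases that bind the CEACAM1 tail, PTPN11 had 508 and 302 tags (-0.61, ratio 0.654, 0.565 to 0.756) and PTPN6 had 8 and 10.

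**Figure D4:**
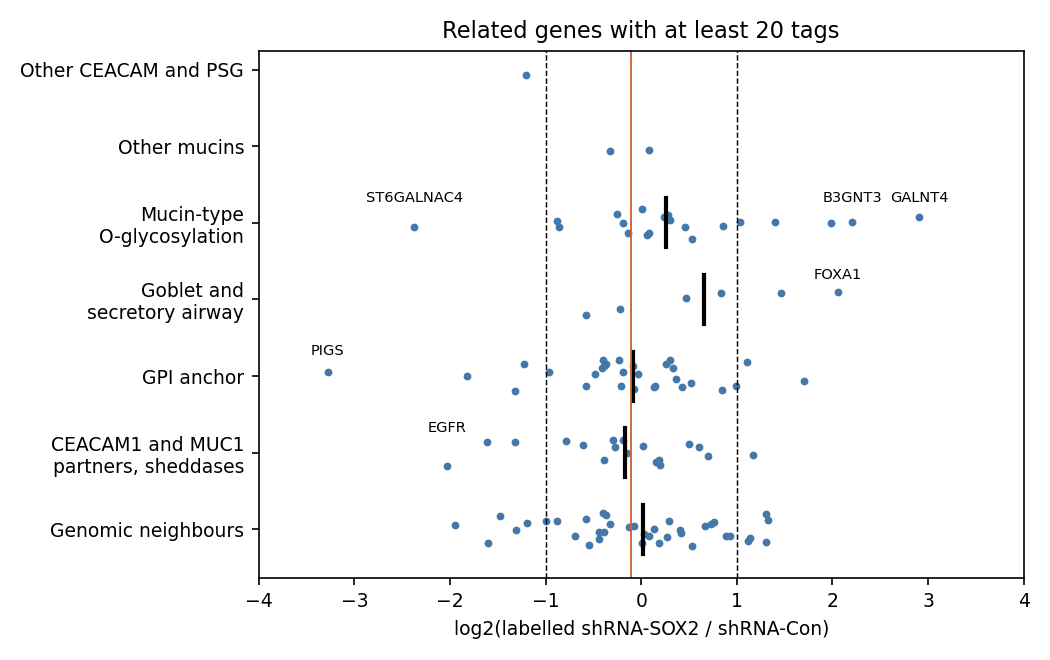
Log2 difference of the related genes with at least 20 tags, by list, with 1 point per gene. Black bars are medians of lists with more than 2 genes, the orange line is the median of all genes (-0.10) and dashed lines mark 2-fold. The medians of the O-glycosylation (0.26) and secretory airway (0.66) lists lie above the line, and points fall on both sides of it in every list with more than 1 gene.

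The genes that neighbour the 7 on their chromosomes were also compared, since position was not used to choose them. Taking the 5 genes of the table on each side of each gene in RefSeq order gave 50 genes, of which 38 had at least 20 tags. Genes not in the table were skipped, so those named as beside a gene need not be adjacent to it. CNFN was 7 RefSeq genes away from CEACAM1, and BCKDHA was 19 away from CEACAM6. Of these 38, 5 were higher by 2-fold or more (all genes 10.4%) and 5 lower (all genes 13%), and the median log2 difference was 0.02. Beside CEACAM1, CNFN had 80 and 73 tags (0.01). The neighbours of CEACAM1 had a median of -0.28, and 4 of the 6 with at least 20 tags were below 0. Beside CEACAM6, BCKDHA had 74 and 146 tags (1.12) and RPS19, a ribosomal protein with many pseudogenes, had 37058 and 83198 (1.30). Beside MUC13, SNX4 had 33 and 75 tags (1.32), HEG1 had 46 and 15 (-1.48) and ZNF148 had 106 and 39 (-1.30). Beside MUC1, EFNA1 had 16 and 36 tags (1.31) and FAM189B had 128 and 51 (-1.19). The neighbours of MUC5B had a median of 0.18, with 6 of 9 above 0. The lowest value among the 38, that of BRSK2 beside MUC5B, named after its value was seen, was -1.95 on 34 and 8 tags, below the -1.33 of MUC5B. The highest log2 difference among the 38 was 1.32, that of SNX4.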

How the data were processed

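Tags of 2 libraries were compared, 1 per line, so no replicate test was possible. Starting from 4 µg of total RNA, the authors captured mRNA on oligo(dT) beads, and they deposited unscaled tag counts by Entrez Gene ID. The genome named in the submitters' processing notes is hg19, and the aligner is not given in the sources used here. The authors' deposited TPM is scaled to clean tags and served only to recover their totals, 3516266 (shRNA-Con) and 3456234. Their deposited log2 ratios, p-values and FDR were not used.

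Levels are CPM of the gene tags. A log2 difference sets the library labelled shRNA-SOX2 against shRNA-Con, positive where the former is higher, with a count below 3 set to 3, and ratios carry exact conditional 95% intervals. A count of 0 was taken to allow 3 tags, which is 1.43 CPM in the library labelled shRNA-SOX2 and 1.30 in shRNA-Con. The exact two-sided limits are 1.76 and 1.60. The smallest count above 0 was 2, and whether a listed 0 can hide a tag is not known. The exact limits and intervals take a listed 0 as a true 0, so they would be too narrow if it can. The members, lists and letters were chosen with earlier results of these data known. Genes were named if they were members, had tags in the family lists, were past 2-fold or most abundant in other lists, or neighboured a member. Alternatives used edgeR 4.0.16 and DESeq2 1.42.0 for scaling only, other minimum tags, 4-fold, and 0.5 added to counts. Python 3.11.15 with scipy 1.17.1 was used, and the steps were tested on simulated data. Rows without a symbol held 0.0535% and 0.0372% of the gene tags in shRNA-Con and the other library. Some genes that the naming rule selects are not reported here.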

Additional observations from a re-analysis of the deposited data

How the results depend on the processing

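No paired analysis was possible because a single library stood for each line, and no library could be left out. The median log2 difference of all genes was -0.10 with gene tags, -0.03 with TMM factors or the median ratio and -0.22 with clean tags, and every member moves with it by the same amount. Over the other scalings and 0.5 added to counts, the log2 difference ranged from 3.76 to 3.95 for CEACAM1, 3.33 to 3.51 for MUC13, -1.45 to -1.26 for MUC5B, -0.30 to -0.11 for CEACAM6 and -0.06 to 0.13 for MUC1, all 20 values within the counting interval. Past 2-fold were 3 members under these settings, and 2 with 4-fold or with at least 100 tags, where 2 remained to be counted.

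The number of genes past 2-fold, 2346, was 1184 with at least 100 tags and 384 past 4-fold. With 4-fold, the numbers were 3 for O-glycosylation, 1 each for secretory airway genes, GPI anchoring and the partners, and 0 for the neighbours and for the other CEACAM and PSG genes. With at least 100 tags they were 6 for the neighbours, 1 for secretory airway genes and 0 for O-glycosylation and the other CEACAM and PSG genes, of which 0 had so many tags. With no minimum they were 4 for secretory airway genes, 2 for the other CEACAM and PSG genes and 1 for the other mucins. A stricter fold or minimum counts fewer genes by construction. Of 63 such counts 48 were within 1.5 times the value given. Depth limits MUC1 and CEACAM6 most, with 35 and 36 tags.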
